A study of Mus musculus with 12 samples.

Results

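Antibody and plasma cell transcripts were measured in 12 libraries of sorted mouse hematopoietic stem cells, the cells from which all blood lineages descend. The transcripts are Jchain, Igha, Ighm, Igkc and Mzb1, which were chosen by name because their levels were already known to vary between mice of one group. All 5 are among the 27179 genes listed in the count table, and all 5 passed the filter on low counts that kept 14473 genes. Their levels, ratios and fold differences are therefore given as a description, with no test. The C57BL/6J mice came in 4 genotypes of 3 mice each, with 1 library per mouse and no treatment. Group WT (WT2, WT3 and WT4) was wild-type. Group E (E1, E2 and E3) carried Emu-myc, a transgene in which the immunoglobulin heavy chain enhancer drives Myc in the B lineage. Group C (C1, C2 and C3) was Casp1 -/- Casp11 -/-, a loss of the inflammatory caspases that act in pyroptosis, and group CE (CE1, CE2 and CE3) carried both Emu-myc and this double knockout. The ages and the surface markers of the sort are not given in the labels.

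Antibodies are built from a pair of heavy and a pair of light chains. Each chain joins a variable region, assembled from V, D and J gene segments while a B cell develops, to a constant region. The constant region sets the class: Ighm encodes that of IgM, the first class a B cell makes, and Igha that of IgA, which is reached by class switching. Igkc encodes the constant region of the kappa light chain, the commoner light chain in mice. Jchain encodes the joining chain that links IgM and IgA into polymers, and Mzb1 encodes a chaperone of the endoplasmic reticulum that helps to assemble IgM in B-lineage cells. Plasma cells, the end stage of the B lineage, live in the bone marrow among the stem cells and devote much of their RNA to antibody. Unrearranged constant regions can also be transcribed before a functional chain exists, so Ighm or Igkc RNA alone does not mark a plasma cell.

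Libraries held 24529611 to 34065910 counts. The annotation lists Casp11 as Casp4. Casp1 was at 29.8 to 47.8 CPM (reads counted for a gene, scaled to a common effective library size) in the 6 WT and E libraries and at 5.10 to 6.76 CPM in the 6 C and CE libraries. Casp4 was at 12 to 17.2 CPM and 7.06 to 13.7 CPM in the same libraries, and Myc, whose count here does not separate the transgene from the native gene, was at 393.5 to 448.3 CPM in WT and E and 319.1 to 409.4 CPM in C and CE. Y-linked transcripts summed to 91.3 to 121.4 CPM in all C libraries, in CE1 and in CE2, and to at most 0.263 CPM in the rest, CE3 included. The sex of the mice and the caspase genotype can therefore hardly be told apart in C against WT or CE against E. The covariate for Y-linked transcripts used below varies only within CE, so its effect is estimated from CE1 and CE2 against CE3. Adjusted p-values with it, in comparisons with C or CE, thus rest on 1 mouse, CE3. They cannot separate sex from caspase genotype. C1 and C3 had counts on more genes (22900 and 21247) than any other library (17310 to 18863). The stem cell genes Kit (363.7 to 507.9 CPM), Mecom (8.91 to 20.3 CPM), Procr (8.28 to 18.4 CPM) and Hoxb5 (0.566 to 1.94 CPM) were present in every library, as was Mpo, a gene of myeloid progenitors, at 5454.4 to 9050.6 CPM. In bulk RNA, fewer cells of a type and less RNA per cell cannot be told apart.

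Jchain, Igkc and Mzb1 were high in 2 of the 3 Emu-myc mice, E1 and E2, and not in the other, E3. IgA transcripts had another pattern: Igha was higher in every mouse with the transgene than in any mouse of the matching group without it. Ighm was abundant in all 12 libraries and stood out in E2. The variable gene segments that led also differed between most of the mice. Of the 14473 genes tested, 12 passed in E against WT (0.0829%), 30 in CE against C (0.207%), 95 in C against WT (0.656%) and 229 in CE against E (1.58%), by edgeR's quasi-likelihood test at a Benjamini-Hochberg adjusted p under 0.05. In the same order, 952, 744, 3359 and 3271 of the 14473 genes had an unadjusted p under 0.05 by that test. The unadjusted counts of the gene lists below are to be read against these totals.

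Jchain (gene 16069, chromosome 5, 88519809 to 88527897, minus strand, mm10) was at 5.81, 21.5 and 9.44 CPM in WT2, WT3 and WT4. In the Emu-myc mice it was at 76.7, 85.3 and 6.48 CPM in E1, E2 and E3. It was at 4.76, 2.59 and 14.2 CPM in C1, C2 and C3, and at 3.94, 1.70 and 4.73 CPM in CE1, CE2 and CE3. E1 and E2 were above every other library, while E3 lay inside the WT range. These levels rest on 50 counts in CE2 and 2697 in E2. The mean of the WT group was 12.2 ± 8.21 CPM and that of the E group 56.1 ± 43.2 (SD, n = 3 each). The caspase knockout groups had means of 7.19 ± 6.19 CPM (C) and 3.46 ± 1.57 (CE; SD, n = 3 each). The E mean was 4.58-fold the WT mean (log2 2.20) with overlapping groups, and without E1 and E2 the single remaining E library gave log2 -0.92. All 3 CE libraries were below all 3 E libraries (log2 -4.02, from -4.55 to -3.59 when each library was left out in turn). Groups did not overlap in that direction for 15.1% of all genes tested, and without E1 and E2 the difference was log2 -0.91. CE and C overlapped (log2 -1.06, and -0.09 without C3), as did C and WT (log2 -0.77, but -1.74 without C3 and -0.08 without WT3).

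Igkc (gene 16071, chromosome 6, 70726435 to 70726754, plus strand) followed Jchain. It was at 29.1, 83.2 and 45.1 CPM in WT2, WT3 and WT4 and at 252.7, 310.7 and 22.7 CPM in E1, E2 and E3. It was at 21.9, 10.8 and 55.1 CPM in C1, C2 and C3 and at 8.78, 5.94 and 36.7 CPM in CE1, CE2 and CE3. Again E1 and E2 were above every other library and E3 was below every WT library. The E mean of 195.4 ± 152.3 CPM was 3.72-fold the WT mean of 52.5 ± 27.8 (SD, n = 3 each, log2 1.90), with overlapping groups and log2 -1.21 without E1 and E2. C had a mean of 29.3 ± 23.1 CPM and CE one of 17.1 ± 17.0 (SD, n = 3 each), and these groups overlapped (log2 -0.77). Without CE3 that difference was log2 -1.99 and without C3 it was 0.07, so its size turned on a single library in either group. CE against E gave log2 -3.51 with overlapping groups and -0.40 without E1 and E2. C against WT gave log2 -0.84, also with overlapping groups (-1.68 without C3 and -0.34 without WT3).

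Mzb1 (gene 69816, chromosome 18, 35647265 to 35650266, minus strand) was at 10.3, 15.4 and 5.20 CPM in WT2, WT3 and WT4. It was at 22.0, 38.1 and 3.99 CPM in E1, E2 and E3, so the same 2 Emu-myc libraries led. It was at 9.76, 19.2 and 15.2 CPM in C1, C2 and C3 and at 3.98, 4.92 and 4.76 CPM in CE1, CE2 and CE3. The CE libraries were close to each other, at 4.55 ± 0.507 CPM against 14.7 ± 4.72 in C (SD, n = 3 each), and all 3 were below all 3 C libraries. That was a 3.23-fold lower mean (log2 -1.69, from -1.92 to -1.45 with each library left out). For 7.79% of all genes tested, CE was likewise wholly below C. E against WT gave log2 1.05 with overlapping groups, and -1.37 without E1 and E2. CE against E gave log2 -2.23 with overlapping groups and 0.19 without E1 and E2, and C against WT gave 0.51 with overlapping groups.

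Igha (gene 238447, chromosome 12, 113256204 to 113260236, minus strand) covered the widest range, from 0.172 CPM in C1 (5 counts) to 495.1 CPM in E1 (11884 counts). It was at 0.365, 2.70 and 0.563 CPM in WT2, WT3 and WT4 and at 495.1, 30 and 6.12 CPM in E1, E2 and E3. It was at 0.172, 1.34 and 0.417 CPM in C1, C2 and C3 and at 17.2, 18.3 and 2.69 CPM in CE1, CE2 and CE3. Every Emu-myc library was above every library of its matching control group, on either caspase background. E3, which lay within or below the WT range in the other 4 transcripts, was among them with 155 counts. The E mean of 177.1 ± 275.7 CPM was 146.3-fold the WT mean of 1.21 ± 1.30 (SD, n = 3 each, log2 7.19), and without E1 the difference was log2 3.90. Without E1 and E2 it was log2 2.34. The CE mean of 12.7 ± 8.72 CPM was 19.8-fold the C mean of 0.644 ± 0.616 (SD, n = 3 each, log2 4.31, from 3.86 to 5.43 with each library left out). Of all genes tested, 4.46% were wholly higher in E than in WT, 7.10% in CE than in C, and 0.947% in both. E and CE overlapped (log2 -3.80, and -0.50 without E1), as did C and WT (log2 -0.91, and 0.47 without WT3).

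Ighm (gene 16019, chromosome 12, 113418826 to 113422730, minus strand) had the highest mean CPM of the 5 in every group. It varied least of the 5 within WT, E and C, whereas within CE Mzb1 varied less (SD 11.1% of its mean, against 20.9% for Ighm). In E1 alone, Igha was above it (495.1 against 481.2 CPM). It was at 398.6, 520.8 and 529.8 CPM in WT2, WT3 and WT4 and at 481.2, 1139.6 and 432.8 CPM in E1, E2 and E3. It was at 471.1, 479.8 and 590.3 CPM in C1, C2 and C3 and at 399.7, 328.3 and 498.3 CPM in CE1, CE2 and CE3. Outside E2, the 11 libraries lay between 328.3 and 590.3 CPM, and all 4 pairs of groups overlapped. The E mean of 684.5 ± 394.8 CPM stood at log2 0.50 from the WT mean of 483.1 ± 73.3 (SD, n = 3 each), and at -0.08 without E2. The C mean was 513.7 ± 66.5 CPM and the CE mean 408.8 ± 85.3 (SD, n = 3 each, log2 -0.33).

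**Figure D1:**
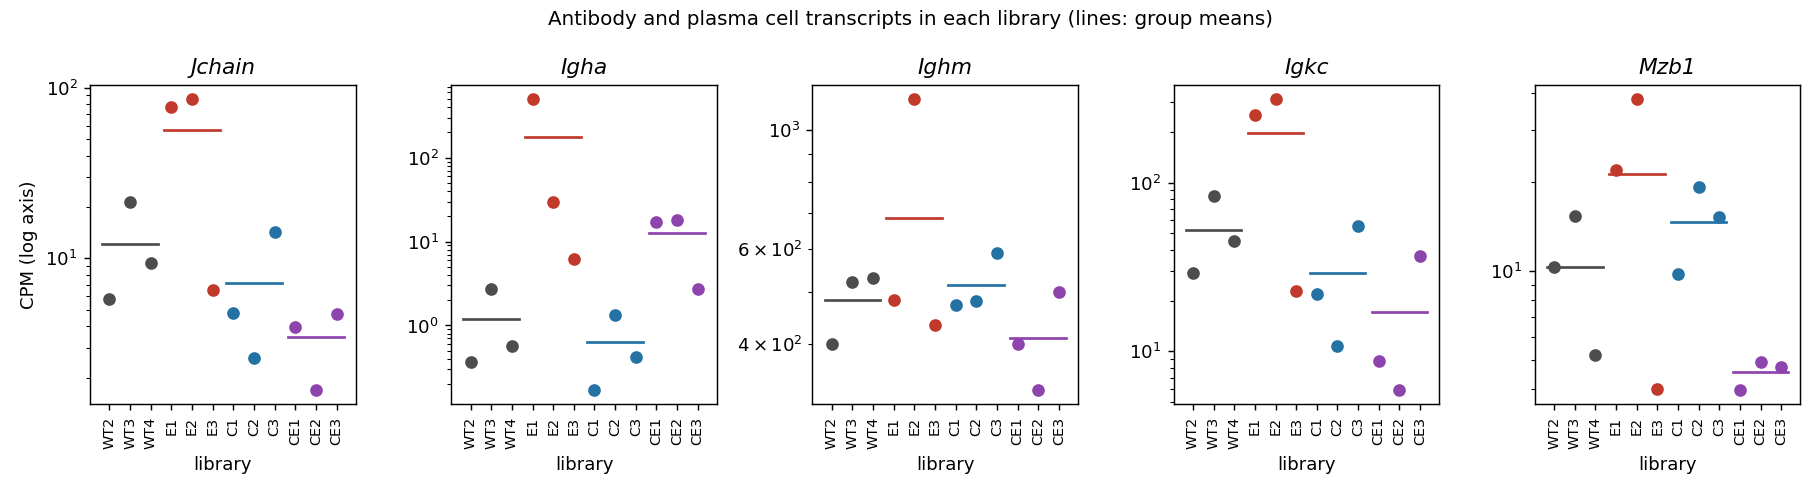
Level of each of the 5 transcripts (CPM, log axis) in each of the 12 libraries, coloured by group, with a line at each group mean. E1 and E2 lead in Jchain, Igkc and Mzb1, E1 alone reaches 495.1 CPM of Igha, and the CE libraries of Mzb1 lie between 3.98 and 4.92 CPM.

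Scaled to the exon length of each gene, Ighm led in WT at 256.1 ± 38.9 CPM per kilobase, ahead of Igkc at 98.7 ± 52.2 (SD, n = 3 each). Mzb1 followed at 8.48 ± 4.22, Jchain at 4.87 ± 3.26 and Igha at 0.454 ± 0.486 CPM per kilobase (SD, n = 3 each). In E the order was Igkc at 367.2 ± 286.3 and Ighm at 363.0 ± 209.4, which did not differ beyond their spread, then Igha at 66.4 ± 103.3 CPM per kilobase (SD, n = 3 each). That place rests on E1: Igha was at 185.6, 11.2 and 2.30 CPM per kilobase in E1, E2 and E3. Igkc was likewise above Ighm in E1 alone (475.1 against 255.1 CPM per kilobase). It was below Ighm in E2 (584.0 against 604.2) and in E3 (42.6 against 229.5). Jchain (22.3 ± 17.2) and Mzb1 (17.6 ± 14.1) had lower means in E and lay within each other's spread (SD, n = 3 each).

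Few genes varied as much between mice of the same group. The SD within groups, on the log2 CPM scale, was 2.02 for Igha, 1.44 for Igkc, 1.36 for Jchain, 0.97 for Mzb1 and 0.44 for Ighm, against a median of 0.18 over the 14473 genes tested. By that measure Igha ranked 17th, Igkc 35th, Jchain 41st and Mzb1 136th from the most variable gene, while Ighm ranked 1949th. The variation within groups is also what led to the choice of these genes, so the ranks describe them only.

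Jchain and Igkc kept nearly one ratio across the libraries. The Igkc level per Jchain level ran from 2.23 in CE1 to 7.76 in CE3, with a median of 3.88, and in the other 10 libraries it was 3.30 to 5.02, although both transcripts spanned about the same 50.2-fold and 52.3-fold ranges. On the log2 CPM scale their Pearson correlation was 0.97 and Spearman's rho 0.94 over 12 libraries, with 0.94 for deviations from the group means and 0.93 without E1 and E2. The points share library, depth and the choice of the genes for their variation, so the correlation is a description.

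Ighm and Mzb1 tracked Jchain less closely. Jchain and Ighm had r = 0.73 (rho 0.71, 12 libraries) and 0.74 without E1 and E2. Jchain and Mzb1 had r = 0.69 (rho 0.59, 12 libraries), which dropped to 0.33 without E1 and E2. The Mzb1 level per Jchain level ran from 0.287 in E1 to 7.39 in C2, where Mzb1 reached 19.2 CPM beside a Jchain level of 2.59 CPM. Igha stood apart, with r = 0.47 to Jchain (rho 0.21, 12 libraries) and -0.40 without E1 and E2. Its r was 0.09 with Ighm, 0.34 with Igkc and 0.19 with Mzb1.

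**Figure D2:**
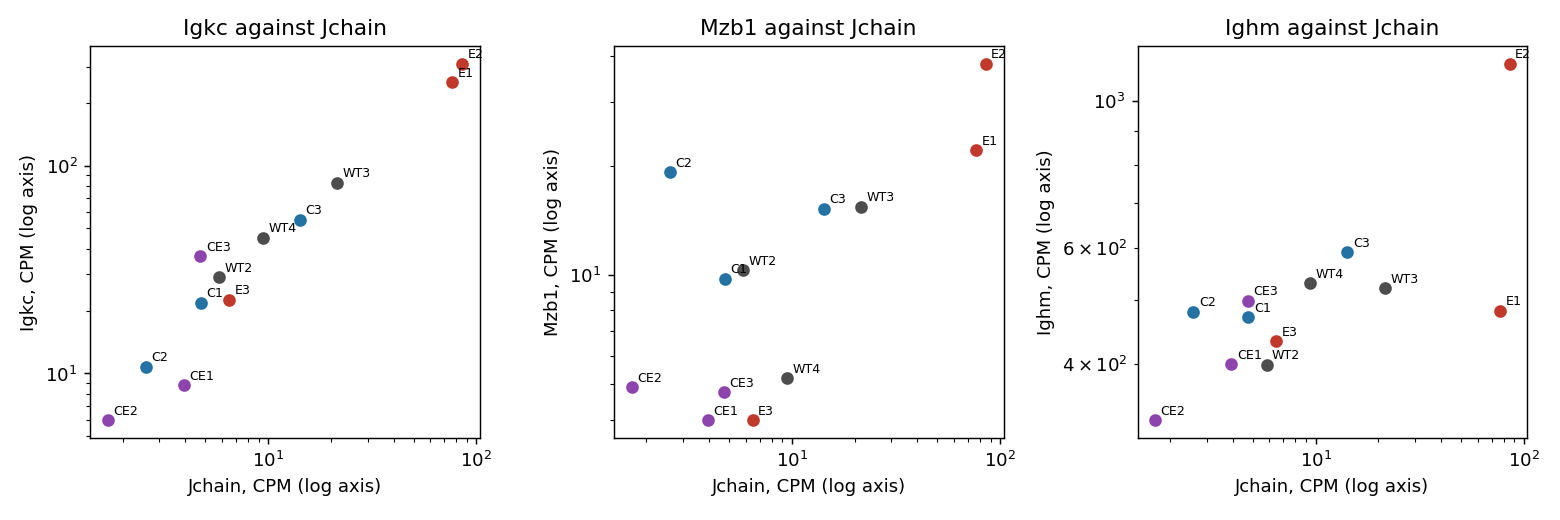
Igkc, Mzb1 and Ighm plotted against Jchain, each in CPM on log axes, with 1 labelled point per library and colours by group. Igkc lies close to a line through all 12 libraries, C2 lies above the others in Mzb1, and E2 stands apart in Ighm at 1139.6 CPM.

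IgM dominated the heavy chain constant region counts in every library but E1. Its share of all heavy chain constant counts was 48.2% in E1 and 92.8 to 98.4% in the other 11. IgA took 49.6% of those counts in E1 (95% Wilson interval 48.9 to 50.2%), 2.53% in E2 (2.38 to 2.70%) and 1.39% in E3 (1.19 to 1.62%). Among the double knockout mice with Emu-myc it was 4.08% in CE1 (3.74 to 4.45%), 5.22% in CE2 (4.81 to 5.67%) and 0.529% in CE3 (0.427 to 0.656%). The highest share without the transgene was 0.482% in WT3 (0.387 to 0.599%), followed by 0.273% in C2 (0.204 to 0.365%). The other 4 WT and C libraries were at 0.0359 to 0.104%. All 6 libraries with Emu-myc were therefore above all 6 without it, although the intervals of CE3 and WT3 overlapped. These intervals cover counting error only.

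The IgG genes, which encode the other switched classes, were high in particular mice. Ighg2b held 1038 counts in WT3 (35.1 CPM), 417 in E1 (17.4 CPM) and 371 in E2 (11.7 CPM), and 190 to 243 in each C library, against 4 in E3. Ighg3 held 144 counts in WT4 (6.24 CPM) and 0 to 11 elsewhere. Ighg1 held 143 counts in CE3 (4.70 CPM), 55 in E1 and 0 to 12 elsewhere. Each of these 3 IgG genes thus had its highest count in a different mouse. Ighg2c had 0 to 3 counts and the IgE gene Ighe 1 to 14 counts in every library. Ighd, which encodes the IgD constant region made beside IgM in naive B cells, was steady at 30 to 106 counts.

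Lambda light chains, from Iglc1, Iglc2 and Iglc3, were the minority everywhere. Their share of the light chain constant counts was 0.549% in C2 (2 counts, 95% Wilson interval 0.151 to 1.98%) and 17.8% in CE2 (38 counts, 13.3 to 23.5%). In the other 10 libraries it lay between 0.993% and 5.92%. CE2, the library with the lowest Igkc, thus had the highest lambda share. Of the 9 other constant region genes, 6 passed the filter on low counts, and 0 passed the test in any of the 4 comparisons by edgeR's quasi-likelihood test with Benjamini-Hochberg adjustment, or by DESeq2. At an unadjusted p under 0.05 lay Ighg1, Iglc1 and Iglc3 in E against WT, Iglc1 in C against WT, and Iglc2 and Ighg2b in CE against E.

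**Figure D3:**
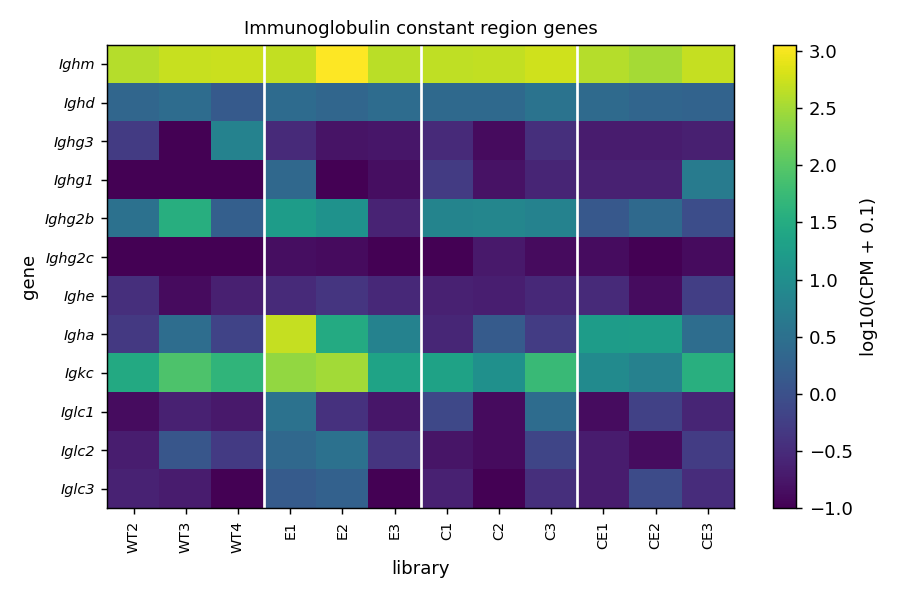
Level of 12 immunoglobulin constant region genes (rows) in the 12 libraries (columns), as log10 of CPM plus 0.1, with white lines between the groups. The Ighm row is bright throughout, E1 is as bright in Igha, and Ighg3 in WT4, Ighg1 in CE3 and Ighg2b in WT3 are the brightest cells of their rows.

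Variable gene segments, which the choice of the 5 transcripts did not use, show how diverse the antibody RNA of each mouse was. A clone of B-lineage cells uses 1 productive heavy and usually 1 light chain V segment, so a few clones leave counts on few segments. The table lists 120 Ighv, 103 Igkv and 3 Iglv segments. A segment was counted as standing out in a library with at least 30 counts and at least 10 times its median over the 12 libraries (the median taken as at least 3), a rule chosen after the values were seen. By it 22 Ighv segments stood out somewhere, 17 of them in 1 library, 3 in 2 libraries and 2 in more. Among the Igkv segments 31 stood out, 19 in 1 library, 10 in 2 libraries and 2 in more. Of the 66 pairs of libraries, 45 shared no such segment, 14 shared 1, 6 shared 2, and WT4 and C3 shared 5.

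The Emu-myc mice differed from each other. In E2, Ighv6-3 took 3428 of 4012 Ighv counts (85.4%, 95% Wilson interval 84.3 to 86.5%) and Igkv5-39 took 5174 of 5478 Igkv counts (94.5%, 93.8 to 95%). Most V segment counts of E2 therefore lay on 1 heavy and 1 light segment. E1, with a similar Jchain level, spread its counts over many segments: 10 Ighv and 17 Igkv segments stood out. Its leading heavy segment, Ighv5-17, held 529 of 2101 counts (25.2%, 23.4 to 27.1%), ahead of Ighv3-6 with 297 and Ighv1-69 with 177. Its leading light segment, Igkv1-117, held 490 of 2767 (17.7%, 16.3 to 19.2%), ahead of Igkv1-110 with 468 and Igkv4-58 with 315. E3 had 1 heavy and 1 light segment standing out, at far lower counts: Ighv2-6 with 240 of 482 (49.8%, 45.3 to 54.2%) and Igkv1-117 with 331 of 354 (93.5%, 90.4 to 95.6%).

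In the other groups the V segment counts were lower, and they were concentrated in some libraries and spread in others. In CE3, Ighv1-81 held 401 of 638 Ighv counts (62.9%, 59.0 to 66.5%) and Igkv4-59 held 409 of 517 Igkv counts (79.1%, 75.4 to 82.4%). CE1 was led by Ighv14-2 (107 counts) and Igkv17-127 (105 counts), and CE2 by Ighv1-26 (40 counts, 14.8%) and Igkv4-58 (36 counts, 26.7%), each barely ahead of the next segment. In WT3, Ighv12-3 held 271 of 584 counts (46.4%, 42.4 to 50.5%) and Igkv16-104 held 802 of 1205 (66.6%, 63.8 to 69.2%). WT2 was led by Ighv11-2 (85 counts) and Igkv1-88 (110 counts), C1 by Ighv11-2 (143 counts) and Igkv1-122 (85 counts), and C2 by Ighv1-23 (76 counts, 17.6%), a segment present in all libraries, and Igkv15-103 (79 counts, 54.9%). Ighv11-2, a segment known from the antibodies of B-1 cells, stood out in WT2 and in all 3 C libraries (143, 34 and 136 counts) and had 7 counts in WT3, 1 in WT4 and 0 or 1 in the 6 Emu-myc libraries. It was singled out after its values were seen.

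WT4 and C3 carried the same leading pair, Ighv5-9-1 with Igkv19-93, at 63 and 123 counts in WT4 and 356 and 542 in C3. The ratio of the heavy to the light segment was 0.512 in WT4 and 0.657 in C3. Both also held the pair of E2: Ighv6-3 and Igkv5-39 had 49 and 75 counts in WT4 and 85 and 123 in C3, and at most 6 and 9 counts in the other 9 libraries. The heavy to light ratio of that pair was 0.663 in E2, 0.691 in C3 and 0.653 in WT4, and the Igkv5-39 counts of C3 and WT4 were 2.38% and 1.45% of those of E2. Whether these reads stem from the cells of those mice or from another library was not tested.

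The stretches below are shown because these 6 segments carry the pairs that dominate E2, recur in WT4 and C3, and lead in CE3. Each is a germline stretch at or within a few bases of the 3′ end of a segment as GENCODE annotates it on GRCm38 (the assembly also called mm10), written 5′ to 3′ on the coding strand, which is the minus strand for all 6. Capitals mark the codon of the conserved second cysteine, after which the junction with the next segment begins.
Ighv6-3: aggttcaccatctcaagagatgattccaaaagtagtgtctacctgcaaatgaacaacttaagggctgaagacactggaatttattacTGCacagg
Igkv5-39: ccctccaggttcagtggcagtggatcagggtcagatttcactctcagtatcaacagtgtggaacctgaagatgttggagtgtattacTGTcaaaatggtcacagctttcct
Ighv5-9-1: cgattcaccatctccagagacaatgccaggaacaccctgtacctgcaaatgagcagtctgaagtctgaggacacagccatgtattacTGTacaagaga
Igkv19-93: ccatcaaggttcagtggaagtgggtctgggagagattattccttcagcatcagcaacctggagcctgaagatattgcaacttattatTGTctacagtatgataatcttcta
Ighv1-81: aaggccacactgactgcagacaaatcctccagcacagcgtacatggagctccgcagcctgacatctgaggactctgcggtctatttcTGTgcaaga
Igkv4-59: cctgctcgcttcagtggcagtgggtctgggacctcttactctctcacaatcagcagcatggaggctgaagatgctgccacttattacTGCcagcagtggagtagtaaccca
The genes lie at chr12:114391712-114392169 (Ighv6-3), chr6:69900424-69900977 (Igkv5-39), chr12:113736111-113736630 (Ighv5-9-1), chr6:68736297-68736780 (Igkv19-93), chr12:115920279-115920712 (Ighv1-81) and chr6:69438218-69438757 (Igkv4-59).

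V segments form families of near-identical copies, so a read can be assigned to a relative, and the counter's handling of such reads is not given in the sources used here. The nearest relative of Ighv6-3 is Ighv6-6, with 182 of the last 200 bases the same, and it had at most 8 counts in any library. Igkv5-45, the nearest relative of Igkv5-39 (183 of 200 bases), had at most 5 counts. Igkv4-70 shares 191 of 200 bases with Igkv4-59 and had at most 4 counts. Ighv5-6 and Ighv5-9-1 share 185 of 200 bases, and Ighv5-6 reached 23 counts. Igkv10-94, the nearest to Igkv19-93 with 150 of 200 bases, had 0 counts. Ighv1-77, which shares 184 of 200 bases with Ighv1-81, had up to 65 counts, and is among the segments seen everywhere.

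A low, even layer of heavy chain locus RNA lay under these peaks. Ighv1-23 had 30 to 97 counts, Ighv1-77 18 to 65 and Ighv1-82 19 to 60 in every library, and the joining segments Ighj1 and Ighj4 had 45 to 122 and 14 to 52. In all, 14 Ighv segments but 0 Igkv segments had a count in all 12 libraries, and 16 Ighv and 34 Igkv segments had none in any. Ighv counts came to 18.2% of the Ighm counts in E1 and 11.1% in E2, against 2.68 to 5.82% in the other 10 libraries. Outside E1 and E2, Ighm RNA was thus accompanied by few V segment counts. The share of E1 is overstated by this measure, since IgA took 49.6% of its heavy chain constant counts. Beside all heavy chain constant counts, Ighv had 2101 to 23977 in E1, 4012 to 37440 in E2 and 1070 to 18715 in C3. Igkv counts came to 24.1 to 77.1% of the Igkc counts.

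**Figure D4:**
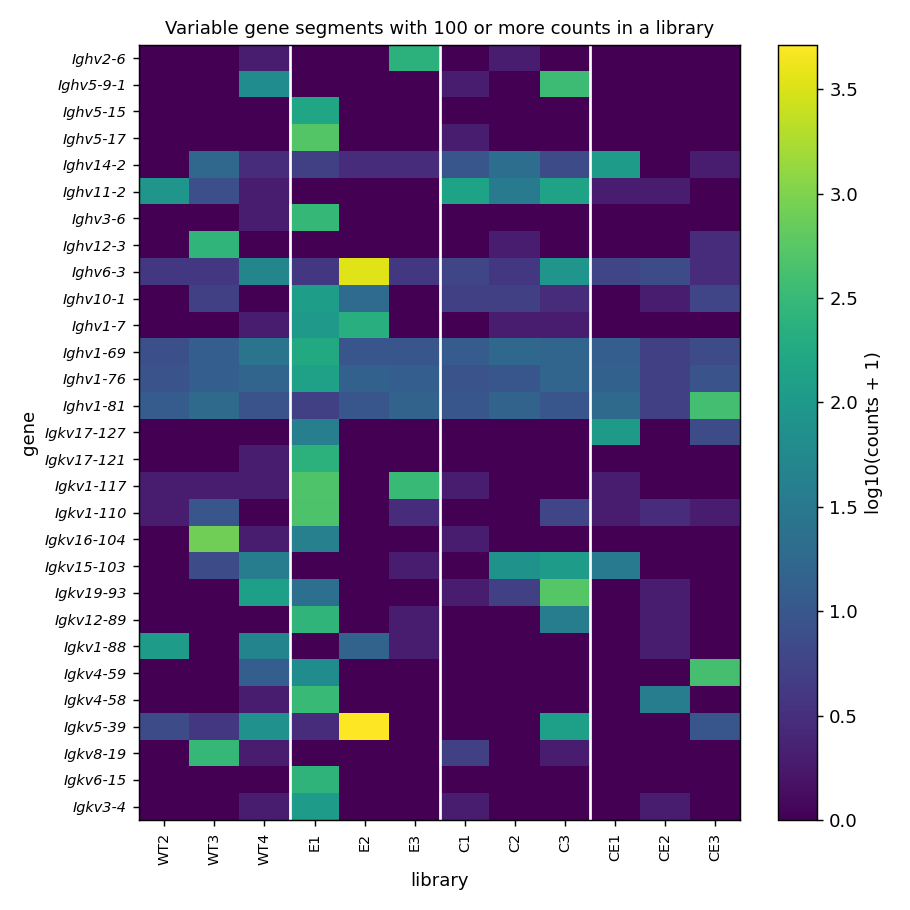
Counts of the heavy (Ighv) and light (Igkv) chain V segments with 100 or more counts in at least 1 library, as log10 of the count plus 1, with rows in genome order within each locus and white lines between groups. E1 is bright over many rows, E2 in Ighv6-3 and Igkv5-39, and most other libraries in a few rows each.

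Other plasma cell genes were read beside the 5 transcripts. Of the 6 transcription factors of the plasma cell and B cell programs, 0 passed in E against WT, C against WT or CE against E, and 1 fell in CE against C. At an unadjusted p under 0.05 each comparison had 2, and DESeq2 called Irf4 and Pax5 in CE against C and Irf4 in CE against E. The gene that fell was Pax5, which holds the B cell identity and is shut off in plasma cells (log2 -2.64, SE 0.41, adjusted p = 0.0137 by edgeR's quasi-likelihood test with Benjamini-Hochberg adjustment). Its adjusted p was 0.0934 with a covariate for Y-linked transcripts and 0.0282 to 0.132 with each library left out. The median log2 fold change of the 6 was 0.31 in E against WT and -0.20 in CE against C, against -0.002 and 0.008 over all genes. Prdm1, which encodes the Blimp-1 repressor that drives plasma cell fate, was at 0.621, 0.912 and 0.390 CPM in WT2, WT3 and WT4 and at 0.875, 1.55 and 1.30 CPM in E1, E2 and E3 (log2 0.94, adjusted p = 0.703, edgeR). Xbp1, the factor of the secretory stress response, was at 148.3 to 159.0 CPM in E and 126.7 to 205.7 CPM in WT (log2 -0.11, adjusted p = 0.914, edgeR). Irf4, needed for plasma cell formation, was highest in E2 at 5.12 CPM and lowest in the CE libraries at 1.12 to 1.35 CPM (CE against C log2 -1.45, adjusted p = 0.165, edgeR).

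Of 16 surface and signature genes of plasma cells, 15 passed the filter, 0 passed in E against WT, C against WT or CE against E, and 1 fell in CE against C. At an unadjusted p under 0.05 there were 4 in the comparison of E with WT, 3 for CE with C, 3 for C with WT and 6 for CE with E, and DESeq2 called 1, 1, 0 and 0. The gene that fell was Pou2af1, which encodes a coactivator of immunoglobulin transcription (log2 -2.67, SE 0.45, adjusted p = 0.0246, edgeR's quasi-likelihood test). It was at 10.4, 16.3 and 15.0 CPM in C1, C2 and C3 and at 2.11, 2.28 and 2.17 CPM in CE1, CE2 and CE3. Mzb1 was likewise lower in CE than in C. Pou2af1 was at 5.88, 12.9 and 2.12 CPM in WT2, WT3 and WT4 and at 6.42, 6.01 and 3.32 CPM in E1, E2 and E3. Unlike Mzb1, it was thus inside the WT range in E1 and E2 and below every C library. Its adjusted p by edgeR was 0.0507 to 0.193 with each library left out and 0.127 with the covariate for Y-linked transcripts. Tnfrsf17, which encodes the survival receptor BCMA of plasma cells, was too low for the test but highest in E1 at 1.29 CPM and E2 at 0.632 CPM, and at most 0.270 CPM elsewhere. Eaf2, another gene of the plasma cell signature, was at 1.46 and 1.99 CPM in E1 and E2 and 0.0596 to 0.611 CPM elsewhere (E against WT log2 1.59, adjusted p = 0.647, edgeR). Sdc1, which encodes the plasma cell surface marker CD138, did not share that order: it was highest in CE3 at 42.4 CPM and was 33.0 and 24.6 CPM in E1 and E2.

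The 28 genes of the endoplasmic reticulum and secretory machinery, on which antibody output depends, did not share the order of the 5 transcripts. In E against WT 0 of 28 passed by edgeR and 0 by DESeq2 (3 at an unadjusted p under 0.05 by edgeR), 23 had a lower fitted level, and their median log2 fold change was -0.14. Hspa5, which encodes the chaperone BiP, was at log2 -0.32 (adjusted p = 0.768) in that comparison and Hsp90b1 at log2 -0.15 (adjusted p = 0.872, edgeR). Sec11c, a subunit of signal peptidase, fell in 2 comparisons by edgeR's quasi-likelihood test. In C against WT 26 of the 28 had a lower fitted level (15 at an unadjusted p under 0.05, 7 called by DESeq2), and in CE against E 22 did (10 and 4). In C against WT Sec11c was at log2 -0.51 with an adjusted p of 0.0499 and in CE against E at log2 -0.53 with an adjusted p of 0.0398, each with an SE of 0.11. With the covariate for Y-linked transcripts these were 0.493 and 0.137, and with each library left out 0.00679 to 0.250 and 0.0670 to 0.190. The summed level of the 28 genes was 5023.7 CPM in E1 and 4621.5 CPM in E2, within the 4568.1 to 6176.5 CPM of WT. Of 9 genes of IgA and IgM transport and mucosal homing, 5 passed the filter, and of 5 genes of the plasma cell niche, 3 did. In those lists 0 genes passed the test in any comparison, with 1 at an unadjusted p under 0.05 in C against WT in each list (Pigr and Tnfrsf13c) and, in CE against C, Cxcl12. DESeq2 called Pigr and Cxcl12 there.

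Markers of other cells also moved with some libraries, and their part in the levels of the 5 transcripts was not tested. Of 12 early B lineage genes, 3 fell in E against WT (Igll1, Vpreb1 and Vpreb2) and 7 in CE against C (among them Vpreb3, Igll1, Vpreb1, Blnk, Rag1 and Cd79a), where 0.0345% and 0.145% of all genes tested fell, by edgeR's quasi-likelihood test with Benjamini-Hochberg adjustment. Rag1 was the single gene of the list to rise, with C 3.29-fold above WT (adjusted p = 0.0382, and 0.539 with the covariate for Y-linked transcripts), where 0.359% of all genes rose and 0.297% fell. Igll1, a part of the surrogate light chain of pre-B cells, was at log2 -2.36 (SE 0.35, adjusted p = 0.0168) in E against WT and -2.43 (SE 0.34, adjusted p = 0.00900) in CE against C. Cd79a, a signalling chain of the B cell receptor, was at 3.04 to 6.04 CPM in E, 4.22 to 5.23 CPM in CE, 6.28 to 22.2 CPM in WT and 22.3 to 33.6 CPM in C. Igll1 was at 3.08, 5.41 and 3.44 CPM in E1, E2 and E3, below the 9.22 to 29.2 CPM of WT. The recombinase gene Rag1 was at 2.87, 2.94 and 4.11 CPM in the same libraries, also below its 4.71 to 9.97 CPM in WT. Its partner Rag2 was at 6.92, 7.05 and 7.55 CPM, inside the 3.29 to 9.70 CPM of WT. E1 and E2, the libraries with the most Jchain, thus stood like E3 to WT in these 3 genes. With each library left out, 2 of 6 refits kept the calls of Igll1 and Vpreb1 in E against WT and 1 of 6 that of Vpreb2. In CE against C 4 of 6 kept that of Cd79a and 0 of 6 that of Blnk. With only the groups compared, the 3 calls in E against WT were lost (adjusted p = 0.107, 0.107 and 0.13, edgeR). For E with WT, CE with C, C with WT and CE with E, 8, 12, 5 and 3 of the 12 had an unadjusted p under 0.05. DESeq2 called 5, 9, 1 and 2. With the covariate for Y-linked transcripts the adjusted p of the 7 genes in CE against C was 0.0448 for Cd79a and 0.0578 to 0.191 for the others (edgeR). The summed level of the 12 early B lineage genes, to which Dntt gave 344.9 to 628.1 CPM, was 533.3 to 784.5 CPM in WT, 493.9 to 662.6 in E, 703.3 to 907.1 in C and 430.1 to 629.9 in CE.

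Of 10 mature B cell genes listed, 8 passed the filter and 0 the test in any comparison (2, 1, 1 and 5 at an unadjusted p under 0.05, and 1, 1, 0 and 0 by DESeq2, for E with WT, CE with C, C with WT and CE with E). Their sums were 247.6 to 337.7 CPM in WT, 278.4 to 304.6 in E, 315.4 to 364.7 in C and 324.3 to 356.0 in CE. Ms4a1, which encodes CD20 of mature B cells, was at 0.875, 0.253 and 0.237 CPM in E1, E2 and E3, at 0 in WT and CE, and at 0 to 0.0345 CPM in C. Among plasmacytoid dendritic cell genes, Siglech was at 12.5 CPM in E1 and 9.50 CPM in WT3 and at most 1.30 CPM elsewhere, and Spib at 13.4 and 6.66 CPM in those 2 libraries and at most 2.15 CPM elsewhere. Ly6d, Cox6a2 and Pacsin1 were also highest in those 2 libraries, but the rest of the list was not. Irf8 was highest in CE3 (397.6 CPM), Runx2 in CE1 (143.9 CPM), Ccr9 in C1 (4.11 CPM) and Klk1 in WT2 (0.584 CPM). Bst2 was highest in E1 (215.3 CPM) and next in WT2 (210.7 CPM), ahead of WT3 (181.7 CPM). Tcf4 was highest in WT3 and CE2 (92.0 CPM each) and was at 69.8 CPM in E1. WT3 was the WT library with the highest Jchain and Igkc. The 11 genes of that list summed to 880.8 CPM in E1 and 759.6 CPM in WT3 and to 611.8 to 741.9 CPM elsewhere. E2, the library with the most Jchain, had the lowest sum. In that list 0 genes passed in any comparison (in that order 0, 1, 2 and 3 at an unadjusted p under 0.05, and 0, 0, 1 and 1 by DESeq2). Of 10 marrow macrophage genes, 0 passed in E against WT by edgeR or DESeq2 (2 at an unadjusted p under 0.05). Vcam1 was at 9.79 and 8.98 CPM in E1 and E2 and 2.67 to 4.6 CPM elsewhere, while Cd68 was lowest of all in E2 at 19.5 CPM. The 10 genes summed to 106.4 and 109.1 CPM in E1 and E2 and 51.9 to 96.0 CPM elsewhere. Of these 10, Slc40a1, Cd5l and Vcam1 fell in CE against E (adjusted p = 0.0398, 0.0227 and 0.0403, edgeR), where 1.11% of all genes tested fell. In that comparison 9 of the 10 had an unadjusted p under 0.05 and DESeq2 called 6. With each library left out, 0, 2 and 1 of 6 refits kept these 3 calls, in that order. With the covariate for Y-linked transcripts each had an adjusted p of 0.124 (edgeR). In C against WT all 10 had a lower fitted level, with 3 at an unadjusted p under 0.05 and 0 called by edgeR or DESeq2. In the T and NK cell, neutrophil and monocyte, and erythroid lists 0 of 9 tested genes each passed in any comparison by edgeR, with at most 4 of a list at an unadjusted p under 0.05 and, by DESeq2, a call of Prtn3 in C against WT. Cd3e, a chain of the T cell receptor complex, was at 0 to 0.208 CPM. Of 15 stem cell genes, 13 had a higher fitted level in E against WT (5 at an unadjusted p under 0.05) and 15 in CE against C (9 at an unadjusted p under 0.05), with 0 past the threshold in either by edgeR and 1 in each by DESeq2. In C against WT 0 passed by edgeR and 2 by DESeq2, with 3 at an unadjusted p under 0.05. The 1 gene that passed was Procr, which rose by log2 0.72 in CE against E (SE 0.17, adjusted p = 0.0462, edgeR; 0.0737 to 0.201 with each library left out and 0.135 with the covariate for Y-linked transcripts). Of all genes tested, 0.477% were called higher and 1.11% lower there.

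**Figure D5:**
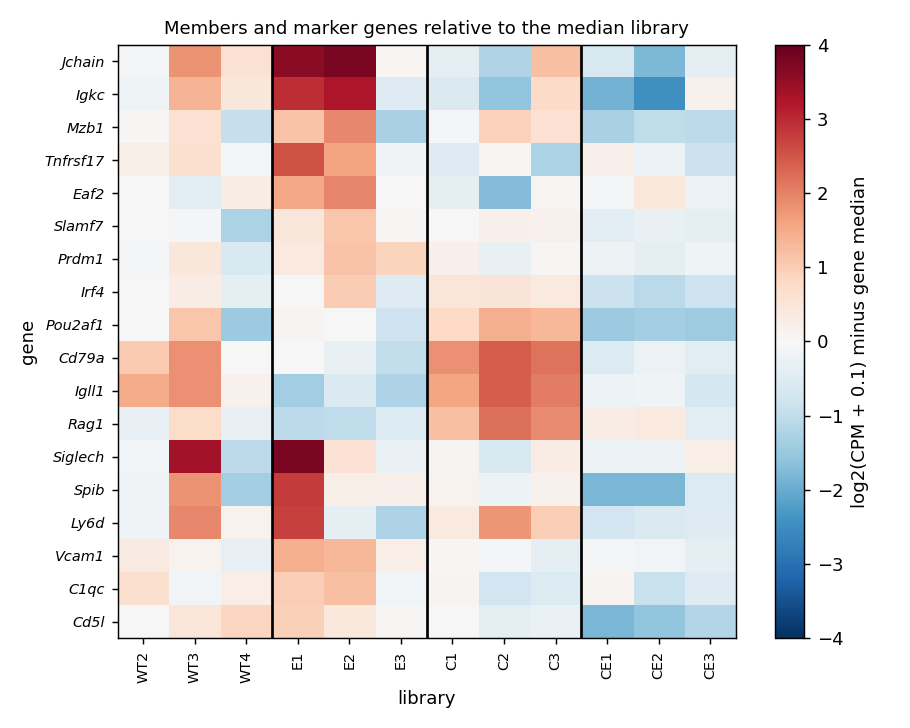
Level of 3 of the 5 transcripts and of genes of plasma cells, early B cells, plasmacytoid dendritic cells and macrophages (rows) in each library (columns), as log2 of CPM plus 0.1 minus the median of the gene over the 12 libraries. E1 and E2 are red in Jchain, Igkc, Tnfrsf17, Eaf2 and Vcam1, E1 and WT3 in Siglech, Spib and Ly6d, and C1, C2 and C3 in Cd79a, Igll1 and Rag1. Other libraries are also red in some of these rows, such as WT3 in Jchain, Igll1 and Cd79a and C2 in Ly6d.

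Other genes ran in parallel with the 5 transcripts over the 12 libraries, as measured by Pearson's r on the log2 CPM scale among 11852 genes. Nearest to Jchain were Arntl (r = 0.92), which encodes a clock transcription factor, Gbp8 (0.89), Tex2 (0.88), Fbxw11 (0.88) and Axl (0.87), a receptor kinase. Arntl was at 20.2 and 24.9 CPM in E1 and E2 and at 11.5 to 17.6 CPM elsewhere. Nearest to Igkc were Arntl (0.90), Gbp8 (0.90), Thbs1 (0.89), Lmo7 (0.89) and Tex2 (0.88). Thbs1, which encodes a matrix protein of platelets and stroma, was at 55.0 CPM in E2 and 2.14 to 20.6 CPM elsewhere.

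Nearest to Mzb1 were Jcad (0.91), Irf4 (0.88), Larp1b (0.87), Sfxn1 (0.87) and Hnrnpf (0.86). Ighm was nearest to the V segments of E2, Igkv5-39 (0.89) and Ighv6-3 (0.86, with a Spearman's rho of 0.30), then to Riox2 (0.81), Slc35d3 (0.79) and Lmo7 (0.76). Nearest to Igha were Nabp1 (0.87), Havcr2 (0.84), Ak3 (0.83), Slc30a4 (0.83) and Lyn (0.83). Ak3, which encodes a mitochondrial adenylate kinase, was at 103.1 to 111.3 CPM in the 6 Emu-myc libraries and 62.8 to 73.0 CPM in the others. These likenesses come from a search through many genes over 12 libraries and carry no test.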

How the data were processed

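Total RNA of sorted hematopoietic stem cells of 12 mice was sequenced, with 1 library per mouse. The authors deposited raw counts per gene, listed by gene number, for all libraries. Alignment was with STAR 2.5.3 to mm10, per the submitters' processing notes. Which counter and annotation were used, whether strand was used and how reads with several matches were treated is not given in the sources used here. Gene symbols and positions came from RefSeq (GRCm38.p6), which matched 25275 of 27179 gene numbers, and exon lengths and V segment sequences from GENCODE vM21.

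Counts were scaled by TMM to CPM, and 14473 genes kept by filterByExpr were tested with edgeR 4.0.16 (R 4.3.3): quasi-likelihood F tests, two-sided, all 12 libraries in one fit of group means, Benjamini-Hochberg adjustment at 0.05. The biological coefficient of variation was 0.139. The method was tested on simulated data. Log2 CPM used a prior count of 2. Fold differences of the 5 transcripts are ratios of group mean CPM. Shares carry 95% Wilson intervals. Like genes are the 5 with the highest Pearson's r among named genes whose average log2 CPM was 0 or more.

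The 5 transcripts, the 15 gene lists and the genes named were chosen with earlier results of these data known. Named are the 5 transcripts, the other constant region genes, the leading V segments, the list genes past the threshold, defining markers of each list as values, and the like genes. The values of 1 list gene past the threshold are not reported here. Faim3 and Hbb-bt found no entry in the table. Alternatives were RLE factors, plain library totals, no filter, DESeq2 1.42.0, only the groups compared, a covariate for Y-linked transcripts, the replicate number as a block, group medians and each library left out. Leaving out E1 and E2 together, and the calls of list genes under each setting, were added after seeing the data. The labels name 1 mouse per library, so p-values measure the spread between mice.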

Additional observations from a re-analysis of the deposited data

Results flagged for a closer look

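Slamf7, which encodes a surface receptor of plasma cells and other lymphocytes, had opposite orders with and without the transgene on the 2 caspase backgrounds. It was at 1.79, 1.72 and 0.693 CPM in WT2, WT3 and WT4 and at 2.5, 3.98 and 1.86 CPM in E1, E2 and E3 (log2 0.98, adjusted p = 0.587, edgeR's quasi-likelihood test). It was at 1.79, 2.06 and 2.02 CPM in C1, C2 and C3 and at 1.28, 1.43 and 1.38 CPM in CE1, CE2 and CE3 (log2 -0.52, adjusted p = 0.999). Neither pair of groups overlapped, and neither difference passed. Of all genes tested, 4.46% were wholly higher in E than in WT and 7.79% wholly lower in CE than in C. The difference between them was log2 1.5 (unadjusted p = 0.00582, adjusted p = 1, edgeR). In that test 0 of 14473 genes passed and 305 had an unadjusted p under 0.05.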

How the results depend on the processing

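Of 190 recomputed fold differences of the 5 transcripts, 172 moved by less than the spread between mice, and 13 of the 190 changed sign. That spread reached log2 2.52 (Igha, CE against E), so a large shift can lie below it. All 10 differences without E1 and E2 moved by at least the spread. Of 130 recomputed correlations 124 moved by under 0.2, and 3 of the 130 changed sign. Of 12 IgA shares 11 stayed within their 95% interval. The IgA share of E1 was 50.7% of Ighm and Igha counts alone. Calls of list genes held in 124 of 228 refits and were lost in 104. For the transgene (E against WT, CE against C) and then the caspases (C against WT, CE against E), the genes passing numbered 217, 203, 1554 and 1172 without the filter, 43, 59, 1256 and 1225 with DESeq2, and 1, 110, 19 and 843 with only the groups compared. The covariate for Y-linked transcripts gave 9, 1 and 2 in the last 3, and RLE factors gave 160 in C against WT. With each library left out the counts were 5 to 21, 2 to 13, 7 to 2258 and 2 to 32, the 2258 being without WT4. With the replicate number as a block, 28, 47, 2045 and 1475 genes passed. Same-numbered libraries deviated together no more clearly than others. Their r was -0.244 to 0.166 over 15 pairs, 4 of them over 0.1, against -0.259 to 0.282 over 39 other pairs, 8 of them over 0.1. This does not settle whether the numbers pair the mice, which the labels do not state. Counts of 5 to 50 behind the low levels of Igha and Jchain limit their ratios.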
